A study of Homo sapiens with 4 samples.

Results

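The ID proteins and the feedback genes of bone morphogenetic protein (BMP) and TGF-beta signaling were examined in A549 cells that overexpress miR-146b. The list holds 10 of the 16922 named genes of the array (ID1, ID2, ID3, ID4, SMAD6, SMAD7, BAMBI, PMEPA1, SKIL and TGFBI), and every probe that carries one of these gene symbols was taken, 14 probes in all. The genes were chosen by pathway, with the log2 differences between A549/146b and A549/vec on these same arrays, a call of ID1 among them, already known. Those differences are therefore given as a description, and their calls only as counts beside the share of all tested probes. A test of the 10 genes is read only between the occasions of culture, a comparison the choice did not use. Other genes of the pathway come from the same fit across all tested probes.

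A549 is a human lung adenocarcinoma cell-line. A549/146b cells carry the pLemiR lentivirus with the human pre-miR-146b precursor in the transcript of the red fluorescent protein TurboRFP, driven by the constitutive cytomegalovirus promoter, and A549/vec cells carry pLemiR with no insert. Both are populations selected and kept in puromycin, neither is a single clone, and both were grown in serum-containing medium. RNA from 2 cultures of each cell-line was hybridized to 4 bead arrays, 1 per culture, and replicates 1 and 2 of the cell-lines were taken as occasions 1 and 2, on each of which both cell-lines were grown side by side. In RNA from whole cultures, fewer cells that express a gene and less RNA per cell cannot be told apart.

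BMP ligands bind paired serine/threonine kinase receptors, which phosphorylate SMAD1, SMAD5 and SMAD9, whereas TGF-beta and activins act mainly through SMAD2 and SMAD3, and both branches share SMAD4. The ID genes are among the direct targets of the BMP branch and are also induced by serum. ID proteins have a helix-loop-helix domain but no basic DNA-binding region, so they pair with E proteins such as TCF3, TCF4 and TCF12 and keep them off DNA. SMAD6, SMAD7, BAMBI, PMEPA1 and SKIL are induced by the pathway and restrain it in turn, and TGFBI encodes a matrix protein induced by TGF-beta.

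The mature microRNAs of the inserted precursor are shown because they define the A549/146b cells, with the seed, bases 2 to 8, in capitals. Both sequences are from RefSeq, and the gene lies on the plus strand of GRCh38.p14, with the 5p arm at chr10:102436520-102436542 and the 3p arm at chr10:102436557-102436578. Neither arm was measured on these arrays.
hsa-miR-146b-5p: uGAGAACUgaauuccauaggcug
hsa-miR-146b-3p: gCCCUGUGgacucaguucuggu

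The start regions of 4 of the genes are printed as examples. ID1, on 1 of its 2 probes, and BAMBI lay apart between the cell-lines on both occasions, as did PMEPA1 probe 1, which is not printed. ID3 differed between the A549/146b cultures, as did ID1, ID2 and PMEPA1, and SMAD6 holds the rarest of the motifs searched. Each run covers 250 bases before to 50 after the annotated first base of the gene, read 5′ to 3′ on the gene's own strand, from RefSeq on GRCh38.p14. The ID1 window is chr20:31605039-31605338 on the plus strand, the ID3 window chr1:23559452-23559751 on the minus strand, the SMAD6 window chr15:66701986-66702285 on the plus strand and the BAMBI window chr10:28677271-28677570 on the plus strand. Capitals mark matches, on either strand, to GGCGCC (a GC-rich motif of SMAD1 and SMAD5), GTCTAGAC (the SMAD palindrome), CAGAC (a short SMAD motif) and TATAAA (the box of the TATA-binding protein).
ID1: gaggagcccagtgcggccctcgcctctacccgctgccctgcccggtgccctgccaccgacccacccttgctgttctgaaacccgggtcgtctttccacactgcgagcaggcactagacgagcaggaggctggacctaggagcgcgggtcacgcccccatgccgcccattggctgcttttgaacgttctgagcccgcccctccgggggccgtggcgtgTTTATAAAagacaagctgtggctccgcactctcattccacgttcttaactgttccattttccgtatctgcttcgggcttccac
ID3: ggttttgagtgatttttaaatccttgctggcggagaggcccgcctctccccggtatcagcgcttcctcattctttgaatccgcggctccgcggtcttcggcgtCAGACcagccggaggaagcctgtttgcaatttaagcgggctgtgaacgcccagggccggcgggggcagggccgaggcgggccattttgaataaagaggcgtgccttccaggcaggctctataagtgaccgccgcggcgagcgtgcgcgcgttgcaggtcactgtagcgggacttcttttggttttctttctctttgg
SMAD6: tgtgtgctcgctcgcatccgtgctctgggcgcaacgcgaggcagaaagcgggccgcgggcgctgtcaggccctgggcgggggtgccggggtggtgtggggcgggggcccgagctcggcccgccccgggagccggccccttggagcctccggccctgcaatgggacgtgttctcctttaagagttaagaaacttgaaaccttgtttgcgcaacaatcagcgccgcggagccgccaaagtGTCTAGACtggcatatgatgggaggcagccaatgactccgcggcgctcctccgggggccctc
BAMBI: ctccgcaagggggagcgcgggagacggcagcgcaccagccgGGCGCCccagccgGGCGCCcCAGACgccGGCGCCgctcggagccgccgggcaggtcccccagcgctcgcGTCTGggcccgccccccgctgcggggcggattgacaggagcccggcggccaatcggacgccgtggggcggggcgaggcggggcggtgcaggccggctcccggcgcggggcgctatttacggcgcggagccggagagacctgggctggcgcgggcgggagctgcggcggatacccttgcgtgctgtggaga

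The 10 genes have 15 such windows, as SMAD7 has 3 annotated starts and PMEPA1 has 4. GGCGCC was found in 4 of the 15 windows, in BAMBI 3 times and once each in 1 PMEPA1 start, SKIL and TGFBI, against 19.2% of the 34943 promoter windows of that length. GTCTAGAC, found in 0.203% of all windows, was in that of SMAD6 alone, 12 to 5 bases before the first base of the gene. CAGAC was in 9 of the 15 windows, of ID3, ID4, SMAD7, BAMBI, PMEPA1 and SKIL, against 45.3% of all windows, and is not contained in GTCTAGAC. TATAAA was in 3 windows, of ID1, ID4 and SMAD7, against 11.6%, and in ID1 it occurs on both strands with overlapping letters. The motif CCAAT, the box of the factor NF-Y and not capitalized in the printed runs, was in 6 windows, against 34.6%. The plot of motif matches shows that ID1 and ID4 have their TATAAA matches within 33 bases of the start, and that the 3 GGCGCC matches of BAMBI lie close together. A match is only a string of letters, and no binding was measured.

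**Figure D1:**
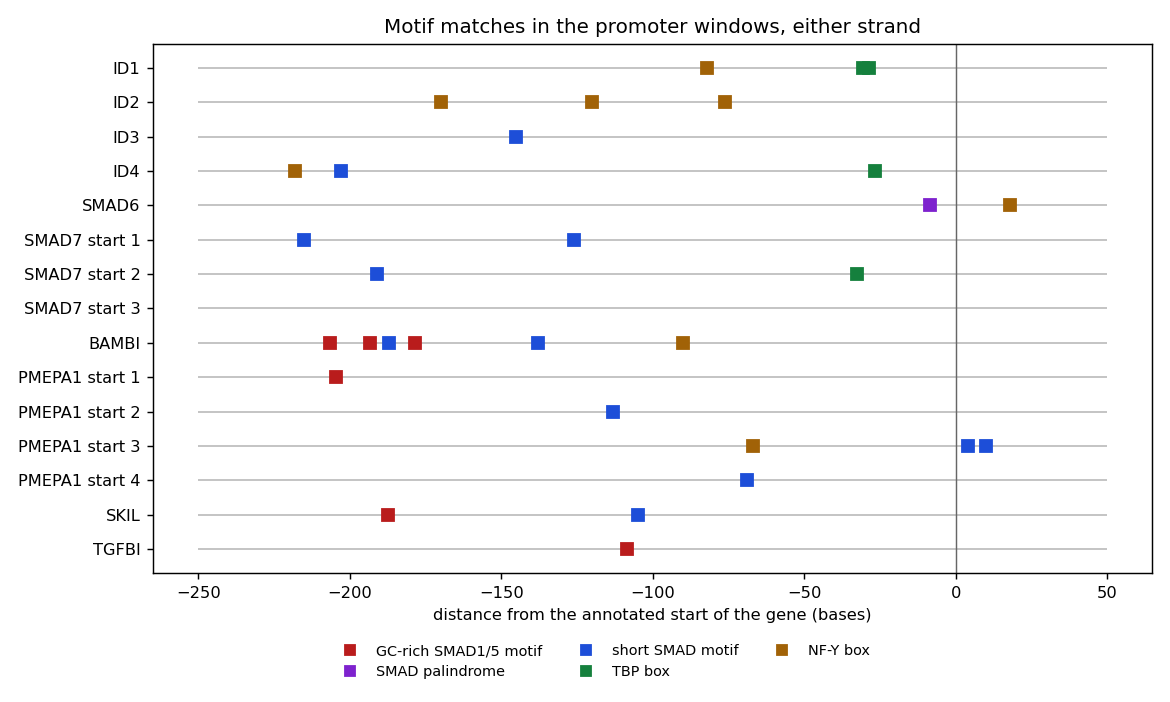
Motif matches (squares, either strand) in the 15 promoter windows, 1 line per annotated start, by distance in bases from the annotated first base of the gene (vertical line). Colors give the motif, where TBP box is TATAAA and NF-Y box is CCAAT. BAMBI has 3 of the GC-rich matches and 1 of the 3 SMAD7 starts has no match.

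Each array measured 24526 probes. A probe counted as detected on an array where its detection p was below 0.01, and the 10559 probes detected on 1 or more arrays were tested. Between 39.2% and 42.1% of the probes were detected per array, the mean signal before normalization was 394 to 480.1, and 4 arrays limit the precision of every value. Over the tested probes the log2 profiles of the arrays correlated with r of 0.985 to 0.995, and A549/vec replicate 1 had the lowest values, 0.985 to 0.991. The SD of the log2 differences between the cell-lines was 0.289 on occasion 1 and 0.163 on occasion 2. Of the markers of simple epithelium and A549, 11 of the 14 on the array were detected, with EPCAM, CLDN4 and AKR1C1 not detected, and the summed signal was 94716 and 89235 in A549/146b, against 95645 and 91380 in A549/vec. Of alveolar type II cell markers 3 of 13 were detected and the surfactant genes SFTPA1, SFTPB, SFTPC and SFTPD were not. Of fibroblast markers 2 of 12 (PDGFRA, ACTA2), of leukocyte markers 2 of 11 (CD14, CD68) and of endothelial markers 0 of 8 were detected, and no marker gene differed between the cell-lines at an adjusted p under 0.05 (limma). KRT19, a keratin of simple epithelium, came closest, with -0.50 (adjusted p = 0.0515, limma).

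All arrays detected 10 of the 14 probes, which stand for 7 of the 10 genes, and the other 4 probes were detected on none. ID1 was the gene that differed between the cell-lines by the most, on 1 of its 2 probes and mainly on occasion 1. BAMBI and probe 1 of PMEPA1 had higher values in A549/146b on both occasions, by more on occasion 2, and ID3, SMAD6 and TGFBI lay close to A549/vec. ID2 differed more between the cultures of A549/vec than between the cell-lines. The plot of signals by array shows all of these values.

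**Figure D2:**
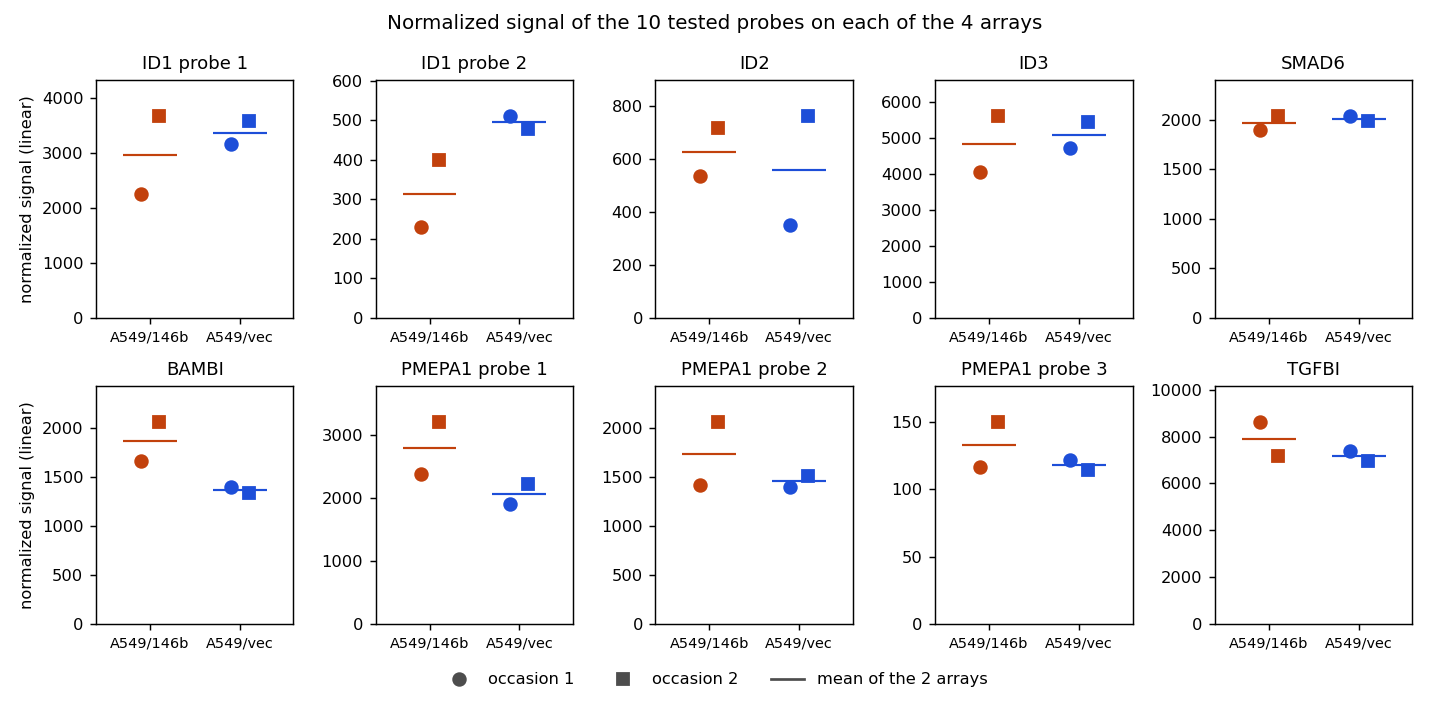
Normalized signal (linear scale from 0) of the 10 detected probes on each of the 4 arrays, A549/146b left of A549/vec in each panel. Circles are occasion 1, squares occasion 2 and lines the mean of the 2 arrays. The 2 lowest values of ID1 probe 2 are those of A549/146b, and the 2 highest values of BAMBI and of PMEPA1 probe 1 are those of A549/146b.

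ID1, the best known BMP target of the family, lies at chr20:31605289-31606510. Both of its probes (ILMN_1664861, here probe 1, and ILMN_1665832, probe 2) are annotated to the same transcript record. Probe 1 had normalized signals of 2251 and 3667 in A549/146b replicates 1 and 2, against 3154 and 3571 in A549/vec. A549/146b replicate 1 was the lowest array and A549/146b replicate 2 the highest, so the cell-lines overlapped. The log2 difference, A549/146b minus A549/vec, was -0.49 on occasion 1 and 0.04 on occasion 2, with a mean of -0.22. That mean was 0.13 without A549/146b replicate 1, which turned its direction.

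Probe 2 of ID1 had signals of 229 and 399 in A549/146b, against 511 and 479 in A549/vec. Both A549/146b arrays were below both A549/vec arrays, with means of 314 ± 120.0 and 495 ± 22.7 (SD, n = 2 each). The A549/146b signal was 0.449 of the A549/vec signal on occasion 1 and 0.833 of it on occasion 2, which are log2 differences of -1.16 and -0.26. Only 0.0379% of the tested probes differed by more in either direction on occasion 1, and 9.3% did on occasion 2. The mean log2 difference was -0.71, and it was -0.31 when A549/146b replicate 1 was left out and -1.11 when replicate 2 of A549/146b was.

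The probes of ID1 kept the same order of the A549/146b cultures, with replicate 1 below replicate 2, but not the same distance from A549/vec. The log2 difference between the cell-lines of probe 2, minus that of probe 1, was -0.67 on occasion 1 and -0.30 on occasion 2. The change of the difference from occasion 1 to occasion 2 was 0.53 for probe 1 and 0.89 for probe 2, a change exceeded in size by 6.92% and 0.275% of the tested probes. Before normalization, probe 2 had signals of 221 and 356 in A549/146b and of 433 and 522 in A549/vec, so the same order of the cell-lines was present in the signals as scanned.

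ID2, which like ID1 holds E proteins back, had signals of 538 and 718 in A549/146b, against 352 and 763 in A549/vec. The lowest and the highest array were both A549/vec. The log2 difference between the cell-lines was 0.61 on occasion 1 and -0.09 on occasion 2, opposite in sign. Its mean was 0.26, and it was -0.30 without A549/vec replicate 1, the array whose profile stood apart, and 0.82 without A549/vec replicate 2.

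ID3, a close relative of ID1 that is often induced with it, had signals of 4063 and 5613 in A549/146b, against 4722.5 and 5452 in A549/vec. The cell-lines overlapped, with replicate 2 above replicate 1 in both. Its log2 difference was -0.22 on the first occasion and 0.04 on the second. It thus had the signs of ID1 probe 1 on both occasions, with a smaller value on occasion 1. Its mean of -0.09 was 0.15 without A549/146b replicate 1 and 0.02 without A549/vec replicate 2.

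ID4, the family member best known from the nervous system, was detected on no array. Its probe had signals of 58.05 and 62.5 in A549/146b, against 61.3 and 59.4 in A549/vec, with detection p-values of 0.735 to 0.974. The same held for SKIL, which encodes SnoN, a co-repressor bound by SMAD2, SMAD3 and SMAD4. The SKIL probe had signals of 62.6 and 60.4 in A549/146b, against 58.5 and 61.7 in A549/vec, with detection p-values of 0.738 to 0.964. These signals lie within the range of the negative control beads and have no order, so no difference is read from them.

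The inhibitory SMADs block the pathway inside the cell, SMAD6 mainly the BMP branch and SMAD7 both branches. SMAD6 had signals of 1898 and 2031 in A549/146b, against 2035 and 1981 in A549/vec. The 4 arrays were close to each other and the cell-lines overlapped. Its log2 differences were -0.10 on the first occasion and 0.04 on the second, and 72.5% and 80.9% of the tested probes differed by more. SMAD7 had signals of 80.1 and 74.8 in A549/146b, against 69.7 and 76.0 in A549/vec, and was not detected, with detection p-values of 0.0356 to 0.133.

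BAMBI encodes a transmembrane pseudoreceptor that lacks the kinase domain and dampens TGF-beta and BMP signals at the membrane. It had signals of 1665 and 2058 in A549/146b, against 1396 and 1337 in A549/vec. Both A549/146b arrays were above both A549/vec arrays, by 1.19-fold on occasion 1 and 1.54-fold on occasion 2. The log2 differences were 0.25 and 0.62, with a mean of 0.44, and 0.284% of the tested probes differed by more on occasion 2. The mean was 0.29 to 0.59 when 1 array at a time was left out.

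PMEPA1 encodes a membrane protein that keeps SMAD2 and SMAD3 from the TGF-beta receptor and targets receptors for turnover. Its probe 1 had signals of 2373 and 3197 in A549/146b, against 1901 and 2217 in A549/vec. Both A549/146b arrays were above both A549/vec arrays, with log2 differences of 0.32 on occasion 1 and 0.53 on occasion 2. Probe 2, annotated to the same transcript record as probe 1, had signals of 1418 and 2063 in A549/146b, against 1403 and 1514 in A549/vec. Only A549/146b replicate 2 was high, and the log2 differences were 0.02 and 0.45.

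Probe 3 of PMEPA1, annotated to another transcript record, had signals of 117 and 150.1 in A549/146b, against 122 and 115 in A549/vec. Its log2 differences were -0.07 on occasion 1 and 0.39 on occasion 2, again with only A549/146b replicate 2 high. Probe 4 was not detected, with signals of 72.6 and 82.1 in A549/146b and 73.3 and 74.8 in A549/vec. The 3 detected probes therefore had the same direction on occasion 2, where 0.814% to 2.46% of the tested probes differed by more, and not on occasion 1. Leaving out A549/146b replicate 2 lowered the mean difference of probe 1 to 0.21, against 0.42 with all arrays, and gave -0.04 for probe 2 and -0.02 for probe 3.

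TGFBI, a secreted matrix protein that binds integrins and collagens, had signals of 8621 and 7189.6 in A549/146b, against 7375 and 6974 in A549/vec. A549/146b replicate 1 was the highest array and the cell-lines overlapped. Its log2 differences were 0.23 on the first occasion and 0.04 on the second. TGFBI was the member whose replicate 2 was below replicate 1 in both cell-lines, with log2 differences of -0.26 in A549/146b and -0.08 in A549/vec.

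Side by side, 5 of the 10 detected probes had the same sign on both occasions, 4 with higher and 1 with lower values in A549/146b, and 58.4% of the tested probes had the same sign. Both A549/146b arrays lay above both A549/vec arrays for 2 probes (BAMBI and PMEPA1 probe 1) and below them for 1 (ID1 probe 2), where 22.0% of the tested probes lay above and 22.0% below. In limma with the occasion as a block, 1 of the 10 probes, ID1 probe 2, was called lower at an adjusted p under 0.05, against 0.492% of the tested probes called lower, and 0 were called higher, against 0.436%. The call of ID1 probe 2 was made in 5 of 10 alternative fits. It was not made with the block or A549/146b replicate 1 left out, or over all probes of the array. Nor was it made with neqc or median scaling of the signals before normalization. As this contrast chose the genes, nothing is read from these counts. The median log2 difference of the 10 probes was 0.15, against -0.002 over all tested probes.

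**Figure D3:**
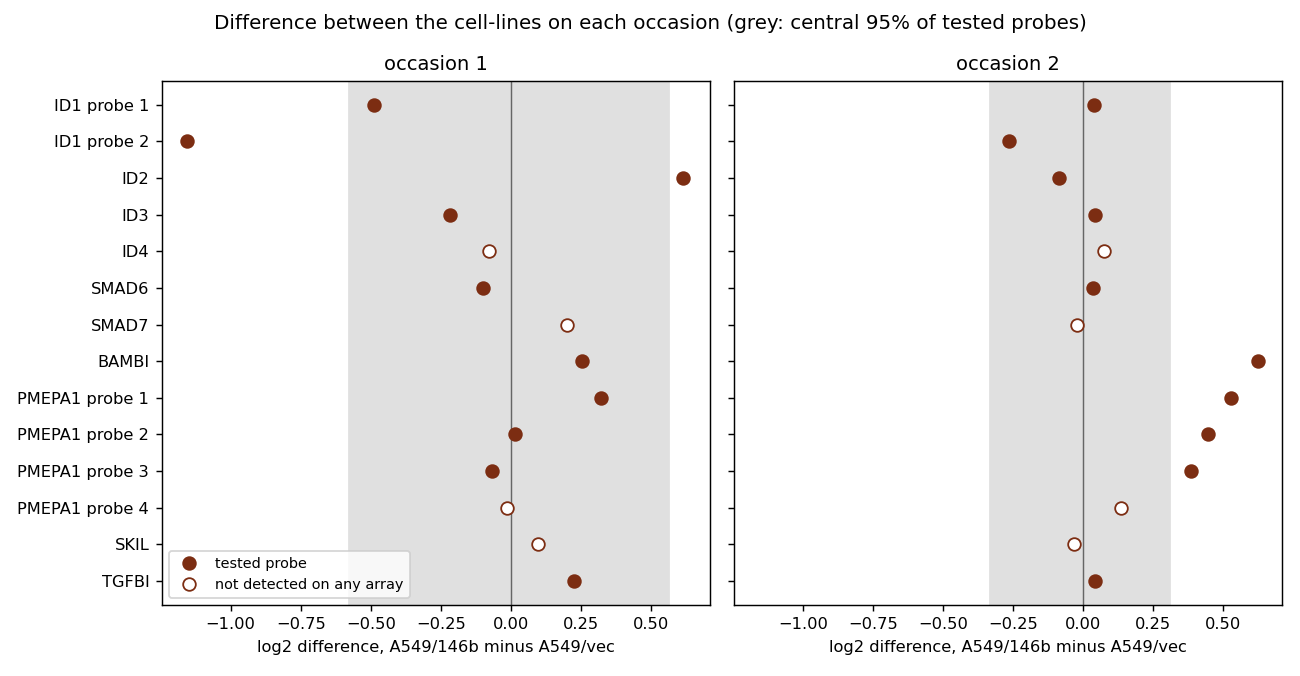
Log2 difference, A549/146b minus A549/vec, of all 14 probes on occasion 1 (left) and occasion 2 (right). Filled points are detected probes, open points are probes detected on no array, and the grey band spans the central 95% of the tested probes, from -0.58 to 0.56 on occasion 1 and from -0.33 to 0.31 on occasion 2. ID1 probe 2 and ID2 lie outside the band on occasion 1, and BAMBI and 3 PMEPA1 probes on occasion 2.

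The duplicate cultures were also compared within each cell-line. How far the 2 cell-lines differ in this is, by construction, the change of the cell-line difference from occasion 1 to occasion 2. The cell-line differences were known when the genes were chosen, so these values are a description as well. Within A549/146b, replicate 2 was above replicate 1 for 9 of the 10 detected probes, against 50.4% of the tested probes, and within A549/vec for 5 of the 10, against 51.8%. The log2 difference of the A549/146b cultures, replicate 2 minus replicate 1, was 0.70 and 0.80 for the ID1 probes, 0.47 for ID3, 0.42 for ID2 and 0.43, 0.54 and 0.36 for PMEPA1 probes 1 to 3. These 7 probes of 4 genes were above 0.35, a limit that 2.5% of the tested probes exceeded. In A549/vec, 1 probe was above the corresponding limit of 0.42, that of ID2, with a difference of 1.12 that 0.0189% of the tested probes exceeded in size. SMAD6 moved little in either cell-line, with differences of 0.10 in A549/146b and -0.04 in A549/vec. The plot of duplicate cultures shows the ID and PMEPA1 probes in the upper part and ID2 at the far right.

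**Figure D4:**
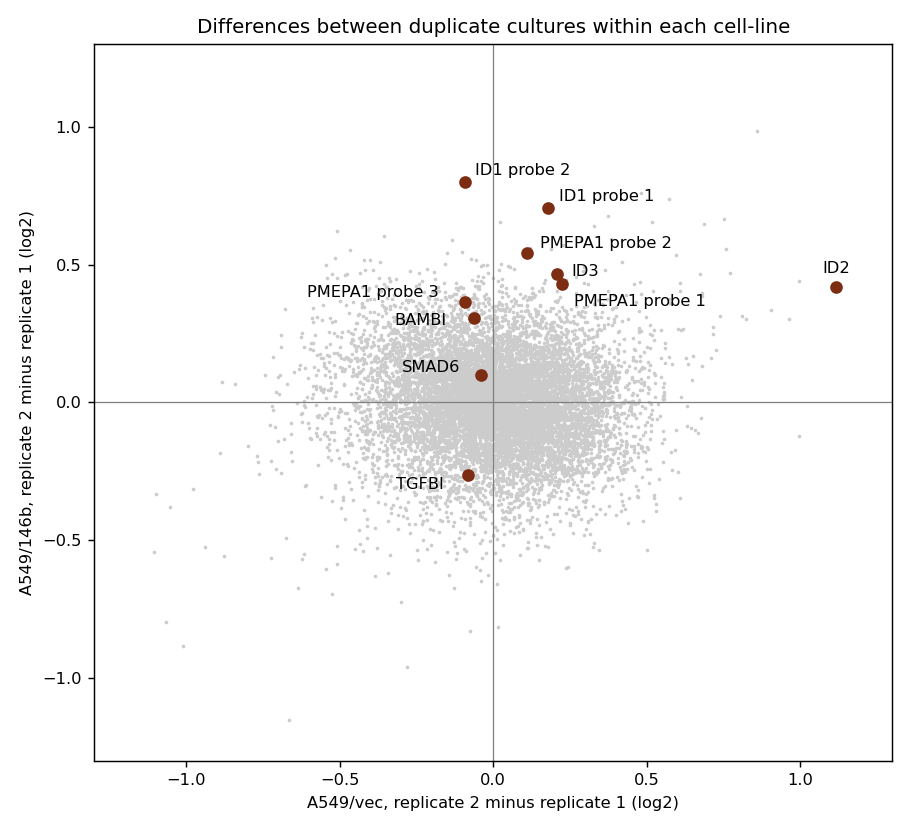
Log2 difference between duplicate cultures, replicate 2 minus replicate 1, in A549/146b (vertical axis) and in A549/vec (horizontal axis). Dark points are the 10 detected probes and grey points the other tested probes, of which 2 lie outside the plotted range. ID1, ID3 and PMEPA1 were higher in replicate 2 of A549/146b, and ID2 in replicate 2 of both cell-lines.

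Occasion 2 was then tested against occasion 1 across both cell-lines, with limma and Benjamini-Hochberg adjustment over all tested probes. ID2 was higher on occasion 2 in both cell-lines, by a mean of 0.77 on the log2 scale (SE 0.14, adjusted p = 1.6e-04). The change was 0.42 in A549/146b and 1.12 in A549/vec. The SE and p rest on a spread pooled over all tested probes and do not reflect how far these 2 values lay apart. ID2 was the 1 of the 10 probes called higher, against 0.161% of the tested probes called higher, and 0 were called lower, against 0.170%. The call did not hold without A549/vec replicate 1, where the difference was 0.46 with an adjusted p of 0.0608 in limma. It was not made without replicate 2 of A549/146b (0.81) or of A549/vec (0.72) either, and was made without A549/146b replicate 1 (1.07). It held in 3 of 10 alternative fits, with adjusted p-values of 1.6e-07 to 1.0 in limma over them, and not in the fit without the cell-line as a term.

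The other ID probes had positive differences that did not pass the test. Occasion 2 minus occasion 1 was 0.44 for ID1 probe 1 (adjusted p = 0.283 in limma), 0.35 for ID1 probe 2 (0.800) and 0.34 for ID3 (0.870), each with an SE of 0.14. PMEPA1 had 0.33, 0.33 and 0.14 for probes 1 to 3, BAMBI 0.12 and SMAD6 0.03, and TGFBI had -0.17. The difference was thus positive for 9 of the 10 probes, against 50.9% of the tested probes, and 6 had an unadjusted p under 0.05, against 4.38%. Each value is a mean over both cell-lines, and replicate 2 was higher for 9 of the 10 probes in A549/146b but for 5 in A549/vec. ID1 probe 2 (-0.09), BAMBI (-0.06), PMEPA1 probe 3 (-0.09) and SMAD6 (-0.04) were lower in replicate 2 of A549/vec. Their positive means thus came from A549/146b alone. The probes of 1 gene share their RNA and are not independent of each other. The median of the 10 probes was 0.33, against 0.003 over all tested probes.

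Genes outside the 10 moved between the occasions as well. KRT19 had signals of 2529.5 and 1708 in A549/146b, against 3645 and 2369 in A549/vec. It was lower on occasion 2 in both cell-lines, by -0.59 on the log2 scale (adjusted p = 0.0145, limma). The call was made in 3 of 10 alternative fits, and the difference was -0.33 without A549/vec replicate 1 and -0.36 without A549/146b replicate 2. Both of these fits lacked a cell-line term, so their values also hold the difference between the cell-lines. With 1 array left out, it was called only in the fit without A549/146b replicate 1. The part of KRT19 in the occasion difference of ID2 was not tested.

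The probes whose pattern over the 4 arrays was most like that of ID1 were found by the Euclidean distance between log2 profiles, each centred on its mean, among 9656 named tested probes. For ID1 probe 1 they were CEBPB (distance 0.109), LSM7 (0.178), TYMP (0.189), ANPEP (0.189) and SERPINB8 (0.191), and ID3 came at rank 11 with 0.218. For ID1 probe 2 they were LIME1 (0.342), TSPAN4 (0.344), BAIAP2 (0.353), EMP3 (0.357) and CTSD (0.363), and ID3 came at rank 911. CEBPB, a leucine zipper transcription factor, had signals of 3123 and 4597 in A549/146b, against 4249 and 4837 in A549/vec. LIME1 had signals of 304 and 394 in A549/146b, against 515 and 497 in A549/vec.

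The rest of the pathway was described from lists of its ligands, receptors, antagonists, SMADs and responsive genes, with 1 detected probe per gene. Of the ligands 5 of 29 on the array were detected, and 1 of the 5, AMH, was called lower. AMH, the anti-Muellerian hormone of the TGF-beta family, had signals of 96.7 and 110 in A549/146b, against 159 and 159 in A549/vec, and was detected in A549/vec alone. Its A549/146b signal was lower by at least 1.39-fold, a bound set by the lowest detected signal of each array. AMH entered the fit only through the A549/vec arrays, where it was high, so no p is given for it and its call supports nothing.

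The other 4 detected ligands had log2 differences of -0.40 to -0.004. INHBB, an activin subunit, had a log2 difference of -0.40 (adjusted p = 0.166) and GDF15, a stress-induced member, of -0.32 (0.318), and neither passed the test in limma. BMP4, a ligand that induces ID genes, had signals of 306 and 209 in A549/146b, against 320.3 and 209 in A549/vec. The cell-lines were within 0.07 of each other on both occasions. BMP4 was lower on occasion 2 than on occasion 1 in both, by -0.58 on the log2 scale (adjusted p = 0.0186, limma), the opposite sign to that of ID2. It was called in 4 of 10 alternative fits, and not when replicate 2 of A549/146b or of A549/vec was left out. TGFB2 had a log2 difference between the cell-lines of -0.004.

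Of the receptors 8 of 17 were detected and 0 were called, with 7 values above 0 and a median of 0.11. BMPR2, the type II receptor of BMPs, had signals of 216 and 195 in A549/146b, against 140.3 and 168 in A549/vec. Both A549/146b arrays were higher, but the log2 difference of 0.42 (adjusted p = 0.143, limma) did not pass the test. TGFBR2 and ACVR1 each had a difference of 0.20, and NEO1, a co-receptor partner of the repulsive guidance molecules, of -0.16. The type I receptors BMPR1B and TGFBR1 were not detected. Of the extracellular antagonists and latency proteins 7 of 19 were detected and 0 were called, with a median of -0.10, from LTBP3 at -0.32 to TWSG1 at 0.33.

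Of the 6 SMADs that carry the signal 4 were detected, and SMAD1 and SMAD9 were not. SMAD5, the detected SMAD of the BMP branch, had signals of 631 and 745 in A549/146b, against 484 and 583 in A549/vec. Both A549/146b arrays were higher, by 0.38 and 0.35 on the log2 scale, and the mean of 0.37 (adjusted p = 0.229, limma) did not pass the test. SMAD2 had a difference of 0.18, SMAD3 of -0.15 and SMAD4 of 0.10. Of the intracellular regulators of SMADs 15 of 25 were detected and 0 were called, with a median of -0.004. The ubiquitin-related enzymes USP15 (0.33) and TRIM33 (0.32), the inner nuclear membrane protein LEMD3 (0.32) and the phosphatase PPM1A (-0.28) had the smallest p-values among them.

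ID proteins act on E proteins, of which all 3 were detected on at least 1 array. TCF12 had signals of 724 and 679 in A549/146b, against 529 and 640 in A549/vec, and the log2 difference was 0.27 (adjusted p = 0.435, limma). Neither TCF12 nor TCF3 (-0.11) passed the test, and TCF4 (-0.07) was detected on 1 A549/vec array alone. Of the partners and related helix-loop-helix genes as a whole 10 of 18 were detected and 0 were called, with a median of -0.02. Of 29 other BMP and TGF-beta responsive genes 17 were detected and 0 were called between the cell-lines, with a median of 0.09. HAS2 (0.36), CDKN1A (0.35), CCN1 (-0.30) and EDN1 (-0.30) had the smallest p-values. TAGLN, a smooth muscle actin-binding protein, was called lower on occasion 2, by -0.65 (adjusted p = 0.00427, limma), and in 4 of 10 alternative fits. Its signals on occasions 1 and 2 were 371 and 298 in A549/146b, against 393 and 199 in A549/vec, so the drop was larger in A549/vec. TAGLN was at -0.36 without A549/vec replicate 2, in a fit with no cell-line term, where it was not called. It was not called without A549/146b replicate 2 either.

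Immediate early genes, which serum and stress induce within minutes and which overlap in their stimuli with the ID genes, were taken with their result between the cell-lines already known, so their values are a description and not independent evidence. Of the 21 detected, 5 were called lower in A549/146b, where 0.492% of all tested probes were, and 0 were called higher, against 0.436%. The median was -0.17, against -0.002 over all tested probes. The transcription factor subunit FOSB had signals of 227 and 156 in A549/146b, against 474 and 220.5 in A549/vec, with a log2 difference of -0.78. FOS, a related subunit, had a difference of -0.59, the RNA-binding protein ZFP36 of -0.58, and the zinc finger factors EGR1 and KLF6 of -0.51 and -0.50. EGR1 and KLF6 were each called in 1 of 10 alternative fits, ZFP36 in 3, FOS in 4 and FOSB in 5. The signals of FOSB and FOS overlapped between the cell-lines when the occasions were disregarded.

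Without A549/vec replicate 1 none of the 5 was called, and FOSB had a log2 difference of -0.23, FOS of -0.16, ZFP36 of -0.36, EGR1 of -0.30 and KLF6 of -0.41. None was called without A549/146b replicate 2 either, and without A549/146b replicate 1 the called ones were FOSB and FOS. These cell-line fits had no occasion term, so their values also hold part of the difference between the occasions. Between cultures of the same occasion, the log2 differences on occasions 1 and 2 were -1.07 and -0.50 for FOSB and -0.75 and -0.44 for FOS. They were -0.73 and -0.42 for ZFP36, -0.47 and -0.55 for EGR1 and -0.72 and -0.29 for KLF6. FOSB and FOS were also lower on occasion 2 than on occasion 1, by -0.82 (adjusted p = 2.1e-05) and -0.72 (adjusted p = 6.7e-04) in limma, in both cell-lines. Neither occasion call was made without A549/vec replicate 1, where the differences were -0.29 for FOSB and -0.34 for FOS. That fit had no cell-line term, so these values also hold the difference between the cell-lines. The A549/146b signals, both kept in it, were 227 and 156 for FOSB and 453 and 307 for FOS on occasions 1 and 2. FOSB was called in 4 and FOS in 3 of 10 alternative fits. Among the fits that left out 1 array, the one without A549/146b replicate 1 made both calls. The summed signal of the 21 immediate early genes was 14561 and 14784 in A549/146b, against 18407 and 15554 in A549/vec. A549/vec replicate 1 was the highest array in this sum and in ID1 probe 2 and the lowest array in ID2. The part of these genes in the differences of the ID probes was not tested.

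**Figure D5:**
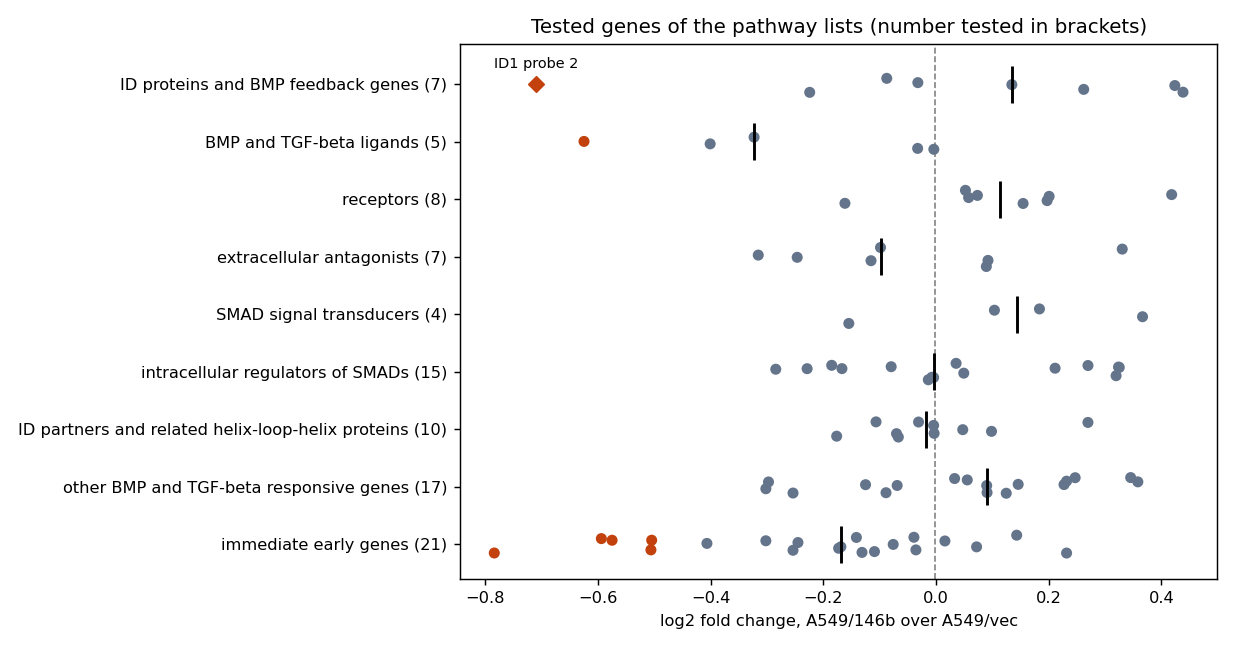
Log2 fold change, A549/146b over A549/vec, of the detected genes of each list, 1 probe per gene, with the number of genes in brackets. Orange points were called in limma, black bars are list medians, the dashed line is the median of all tested probes, and the diamond is ID1 probe 2, shown beside ID1 probe 1 and not in the median. The called genes are AMH among the ligands and FOSB, FOS, ZFP36, EGR1 and KLF6 among the immediate early genes.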

How the data were processed

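RNA of 2 A549/146b and 2 A549/vec cultures was hybridized to HumanRef-8 v3.0 arrays. The authors deposited bead signals as linear intensities from GenomeStudio, the detection p-values of these signals against negative control beads, and normalized intensities that lumi 1.14 in R 2.11.1 gave (background correction, variance stabilization, robust splines). The normalized intensities are on a linear scale, so log2 was taken before any test. Gene symbols came from GEO's annotation of the platform, with 1 symbol for 21834 probes and none for 2692, and older symbols were updated through RefSeq.

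Probes whose detection p was below 0.01 on 1 or more arrays (10559) were fitted with limma 3.58.1 in R 4.3.3, with cell-line and occasion as terms, with Benjamini-Hochberg adjustment over these probes and a threshold of 0.05. The study's methods describe a paired comparison of concurrently grown cultures, and the replicate number of the labels was taken as the occasion. Deviations of same-numbered arrays from their cell-line's mean correlated with r = -0.05, so the data give no sign of the pairing. The fit had 1 residual and 1025 prior degrees of freedom and a prior SD of 0.143, so that nearly all probes share 1 SE. The p-values thus rest on a spread pooled over all tested probes, and not on how far each gene itself varied between its cultures. The smallest two-sided permutation p of 2 arrays against 2 is 0.333, so none was used. The fit was tested on simulated data.

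The genes and lists were chosen with earlier results of these data known. The text names every probe of the 10 genes, in each list the called genes and up to 4 with the smallest p (the detected probe of highest mean per gene), the SMADs, the E proteins and the 5 nearest profiles to each ID1 probe. Alternatives were the fit without the block, other filters on detection, and, from the GenomeStudio signals, neqc, quantile normalization or scaling to the median, and leaving out each array. With an array left out, the cell-line fits had no occasion term and the occasion fits no cell-line term. Each of these differences then also holds part of the other. Promoter and microRNA sequences came from RefSeq tables, and all 10 genes were matched by symbol.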

Additional observations from a re-analysis of the deposited data

How the results depend on the processing

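Between the cell-lines 98 of the 10559 tested probes were called, and 35 between the occasions. With 1 probe per gene, 6 of the 98 were for genes of the pathway lists. One was AMH, whose call supports nothing. The others were the immediate early genes FOSB, FOS, ZFP36, EGR1 and KLF6, taken with their result already known. ID1 probe 2 was also called but is not in this count, as ID1 stands in the lists by probe 1. With the replicate block left out, 12 probes and 0 list genes were called between the cell-lines. The occasion comparison was fitted instead without the cell-line as a term, a different model, and 0 probes were called (237 at an unadjusted p under 0.05), ID2 not among them. With probes detected on all 4 arrays they were 33 between the cell-lines and 3 list genes, and over all probes of the array 0, 0 list genes and 0 between the occasions (1984 and 1031 at an unadjusted p under 0.05). With neqc they were 21 between the cell-lines, 2 list genes and 9 between the occasions, and with median scaling 7, 0 list genes and 3. Leaving out each array in turn, fitted without the block and with the lone array assumed to vary like the others, gave 12 to 868 probes between the cell-lines, 0 to 18 list genes and 0 to 710 probes between the occasions. Quantile normalization gave 84 probes, 4 list genes and 33 probes. Over 10 alternatives BAMBI, PMEPA1 probe 1, TGFBI and ID1 probe 2 kept their direction in all 10, and the other detected probes in 8 or 9. Without the block and with the other filters on detection, the log2 difference is the main one by construction. Direction could change only in the rest, so nothing is read from the agreement of those fits. Causes of these changes were not tested. The limits are 2 cultures per cell-line, 1 residual degree of freedom, and 4 of 14 probes without a detected signal.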
